A study of Mus musculus with 6 samples.

Results

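miR-34a and miR-802 were described in the liver of HFD-fed mice with and without JTXK granule. The table was searched for mouse miRNA names that begin with mmu-miR-34a- or mmu-miR-802-, with either arm of the hairpin accepted. Of its 1039 entries, 3 had such a name: mmu-miR-34a-5p, mmu-miR-802-5p and mmu-miR-802-3p. mmu-miR-34a-3p, the other arm of the miR-34a hairpin, had no entry. Small RNA from the liver of 6 wild type ICR mice aged 30 weeks was sequenced, with 3 mice in each group. All of the mice received HFD (high-fat diet) throughout. After 12 weeks the J group was given JTXK granule, a Chinese herbal formula, by gavage for 8 weeks, and the M group was given sterile water. ICR mice are an outbred stock, so the mice of a group differ genetically. The comparison therefore asks whether the levels differed with the formula among HFD-fed mice. Chow-fed mice were not analysed here, so a rise of either miRNA with obesity could not be examined.

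Levels are given in RPM, the reads of a miRNA scaled to the total of miRNA reads in its library. The libraries held 2626353 to 4314134 miRNA reads. mmu-miR-122-5p, the defining miRNA of hepatocytes, was the most abundant entry in every library. M group replicate 1 stood apart, since 37 of the 548 miRNAs tested were at least 4 times as high there as in any other library, against 0 to 3 such miRNAs in each of the remaining libraries. The sample code of M group replicate 1 also differs from the others in its first digit, and the meaning of that digit is not given. The differences of the members and of their ratios are therefore also given without this library.

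MicroRNAs are cut from a hairpin transcript and pair through bases 2 to 8, the seed, with sites in the 3′ UTR of mRNAs, which lowers the output of those mRNAs. miR-34a is induced by p53 and is known in liver for lowering Sirt1, a deacetylase of metabolic regulators, and its level is reported to rise in fatty liver. miR-802 is reported to rise in the liver of obese mice, where its excess impairs glucose tolerance.

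The mature sequences show which seed each arm carries, including mmu-miR-34a-3p, which had no entry. They were taken from RefSeq (build GRCm38.p6), where all 4 arms matched by name, and the seed is in capitals.
mmu-miR-34a-5p: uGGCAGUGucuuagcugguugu
mmu-miR-34a-3p: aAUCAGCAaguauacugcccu
mmu-miR-802-5p: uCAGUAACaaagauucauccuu
mmu-miR-802-3p: aCGGAGAGucuuugucacucag
The 4 seeds differ from each other, so the members share no seed. mmu-miR-34a-5p and mmu-miR-802-5p are both 22 bases long, with 50.0% and 31.8% G and C.

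The hairpins show where the annotated mature arms lie on each precursor, with the arms in capitals.
Mir34a hairpin: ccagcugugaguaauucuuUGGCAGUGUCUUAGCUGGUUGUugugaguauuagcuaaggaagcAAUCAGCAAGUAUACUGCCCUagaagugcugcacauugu
Mir802 hairpin: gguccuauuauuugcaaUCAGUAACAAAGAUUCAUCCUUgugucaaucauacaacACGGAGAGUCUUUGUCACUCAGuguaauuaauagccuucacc
The Mir34a hairpin lies on the plus strand at chr4:150068454-150068555 and the Mir802 hairpin on the plus strand at chr16:93369720-93369816 (both GRCm38.p6). Neither lies within a protein-coding gene. Mir34a lies between H6pd, 59431 bases away, and Gpr157, 18810 bases away, and it overlaps by 17 bases with Gm37795, a gene of the annotation class TEC on the same strand. Mir802 lies 691 bases from the lincRNA gene 1810044K17Rik, and its nearest protein-coding genes are Runx1 and Setd4, 543571 and 213641 bases away.

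mmu-miR-34a-5p was of moderate abundance. Its reads numbered 259, 114 and 83 in J group replicates 1, 2 and 3, which is 60.0, 31.8 and 29.6 RPM. M group replicates 1, 2 and 3 held 150, 125 and 314 reads, or 57.1, 36.6 and 73.1 RPM. The groups overlapped, because J group replicate 1 lay above M group replicates 1 and 2. The J group averaged 40.5 ± 17.0 RPM (SD, n = 3) against 55.6 ± 18.3 RPM (SD, n = 3) for the M group. With 22 bases in each, RPM needs no correction for length between mmu-miR-34a-5p and mmu-miR-802-5p, although the ease of ligation of either sequence was not tested.

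mmu-miR-802-5p was the more abundant member by about an order of magnitude. It was at 499.8, 782 and 384 RPM in J group replicates 1, 2 and 3, from 2156, 2802 and 1076 reads. It was at 509, 869 and 464 RPM in M group replicates 1, 2 and 3, from 1337, 2965 and 1995 reads. Replicate 2 was the highest library of its own group in both groups, and the other 4 libraries lay between 384 and 509 RPM. The J group averaged 555 ± 205 RPM (SD, n = 3) against 614 ± 222 RPM (SD, n = 3) for the M group.

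mmu-miR-802-3p, the minor arm of the same hairpin, had 10.9, 20.7 and 13.5 RPM in J group replicates 1, 2 and 3, from 47, 74 and 38 reads. It had 17.1, 28.4 and 13.7 RPM in M group replicates 1, 2 and 3, from 45, 97 and 59 reads. The same pair of libraries, replicate 2 of each group, was again the highest, and the groups overlapped. The J group averaged 15.0 ± 5.05 RPM (SD, n = 3) against 19.8 ± 7.70 RPM (SD, n = 3) for the M group.

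**Figure D1:**
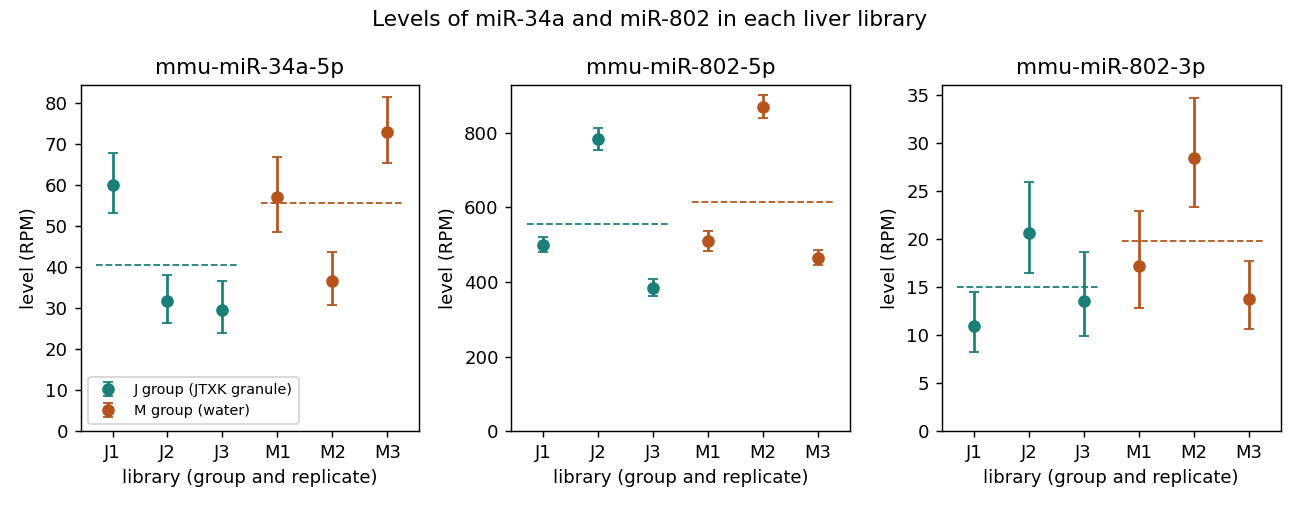
Level of mmu-miR-34a-5p, mmu-miR-802-5p and mmu-miR-802-3p in RPM (vertical axes, from 0) in each of the 6 libraries (J1 to J3 and M1 to M3 are the replicates of the J and M groups), with bars for the 95% Wilson interval of the count and dashed lines for the group means. The J and M libraries overlap in all 3 panels, and both panels of miR-802 have J2 and M2 on top.

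None of the members differed between the groups beyond the spread between mice. Of the 3 members, 0 passed the thresholds of the study (absolute log2 fold change above 0.3 and p under 0.05), with the unadjusted p taken from limma here,, against 5.29% of the 548 miRNAs tested (3.83% lower and 1.46% higher in the J group). The J and M libraries overlapped for all 3 members, whereas they did not overlap for 13.5% of the 548. By limma on log2(RPM + 1), with J over M, mmu-miR-34a-5p had a log2 fold change of -0.47 (standard error 0.38, unadjusted p = 0.26, adjusted p = 0.71), and its 95% interval reached from -1.37 to 0.43. mmu-miR-802-5p had -0.15 (standard error 0.35, unadjusted p = 0.68, adjusted p = 0.88), with an interval from -0.97 to 0.66. mmu-miR-802-3p had -0.36 (standard error 0.37, unadjusted p = 0.37, adjusted p = 0.78), with an interval from -1.23 to 0.52. As a ratio of J to M, these intervals span 0.388 to 1.35 for mmu-miR-34a-5p, 0.512 to 1.58 for mmu-miR-802-5p and 0.425 to 1.43 for mmu-miR-802-3p. Differences inside these bounds could not be told from no difference with 3 mice in each group.

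Across all 548 miRNAs, 29 passed the thresholds, 8 of them higher and 21 lower with JTXK granule, and 0% had an adjusted p under 0.05 in limma, while 29 had an unadjusted p under 0.05. edgeR gave 0 and DESeq2 gave 2 miRNAs with an adjusted p under 0.05 on the recovered reads, neither of them a member. The split between higher and lower depended on the scaling, with 20 and 11 by quantile normalization, 17 and 13 by median-of-ratios scaling and 18 and 27 in edgeR. The median log2 fold change of all miRNAs was -0.13, and it was 0.08 after quantile normalization and -0.02 in edgeR. Relative to that median, the values of mmu-miR-34a-5p and mmu-miR-802-3p lay lower under each of these scalings. mmu-miR-802-5p lay close to it, at -0.15 against -0.13 by RPM, -0.05 against -0.02 in edgeR and 0.15 against 0.08 by quantile normalization. Without M group replicate 1, the log2 fold changes were -0.42 for mmu-miR-34a-5p, -0.26 for mmu-miR-802-5p and -0.42 for mmu-miR-802-3p. With other libraries left out in turn, mmu-miR-34a-5p was at -0.78 without J group replicate 1, -0.74 without M group replicate 2, -0.28 without J group replicate 3 and -0.25 without M group replicate 3. mmu-miR-802-3p was at -0.07 without M group replicate 2, -0.16 without J group replicate 1, -0.57 without M group replicate 3 and -0.60 without J group replicate 2. For mmu-miR-802-5p the sign turned without J group replicate 3 (0.08) or M group replicate 2 (0.13), and the value was -0.43 without J group replicate 2 and -0.32 without M group replicate 3. None of the 3 members passed the thresholds in limma with any library left out.

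**Figure D2:**
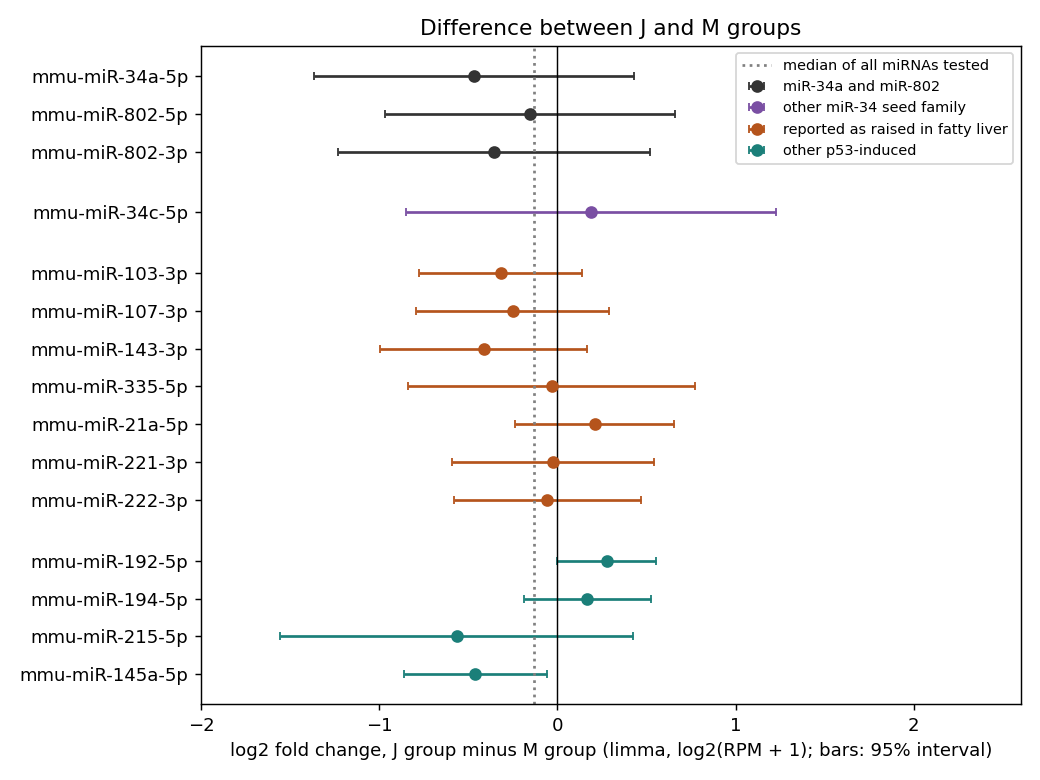
Log2 fold change of the J group over the M group (horizontal axis, limma on log2(RPM + 1)) with its 95% interval for the members, for mmu-miR-34c-5p and for 2 lists of related miRNAs, with a solid line at 0 and a dotted line at the median of all 548 miRNAs. The intervals of the 3 members all include 0, and mmu-miR-145a-5p is the 1 miRNA plotted whose interval does not.

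The spread of the members between the libraries of a group was larger than counting error. mmu-miR-34a-5p had a coefficient of variation of 41.9% in the J group and 32.9% in the M group, while the count alone gives 5.64% to 11.0% in a library. For mmu-miR-802-5p the values were 36.9% and 36.1%, against 1.84% to 3.05% from the count. For mmu-miR-802-3p they were 33.6% and 38.9%, against 10.2% to 16.2%. With 1 library from each mouse, variation between mice and that of library preparation cannot be told apart.
In the order of levels, the 95% Wilson intervals of mmu-miR-34a-5p separated M group replicate 3, J group replicate 1 and M group replicate 1 from the other libraries. Within each of these sets of 3, neighbours in the order overlapped. For mmu-miR-802-5p, M group replicate 2 exceeded J group replicate 2, which in turn exceeded the rest. M group replicate 1, J group replicate 1 and M group replicate 3 overlapped with their neighbours in the order, and J group replicate 3 lay below them. For mmu-miR-802-3p, all neighbours in the order had overlapping intervals. Intervals cover counting error only.

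Compared with miRNAs of similar level, the spread within groups was near theirs for the rarer members and above it for mmu-miR-802-5p. The SD within groups on the log2(RPM + 1) scale was 0.52 for mmu-miR-34a-5p, 0.50 for mmu-miR-802-5p and 0.48 for mmu-miR-802-3p, beside a median of 0.44 over the 548 miRNAs. Among miRNAs whose mean RPM lay within a factor of 2 of its own, mmu-miR-34a-5p had a larger SD than 40 of 69 (median 0.43), mmu-miR-802-3p a larger SD than 68 of 114 (median 0.43) and mmu-miR-802-5p a larger SD than 24 of 34 (median 0.28).

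**Figure D3:**
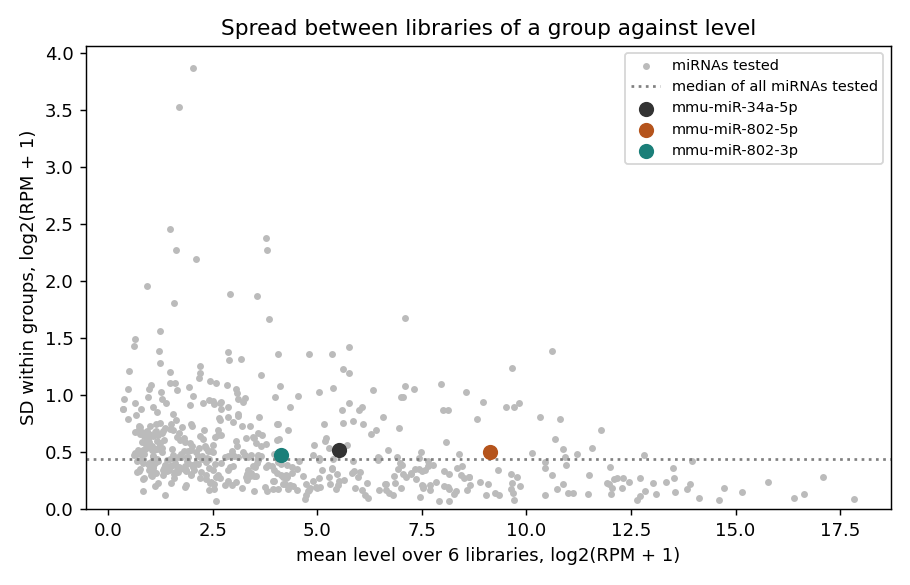
SD within groups on the log2(RPM + 1) scale (vertical axis) against the mean level of each miRNA over the 6 libraries on the same scale (horizontal axis), with 1 grey point for each of the 548 miRNAs tested and a dotted line at their median SD of 0.44. The 3 members, drawn as large points, all lie above the line at 0.48 to 0.52, and abundant miRNAs around mmu-miR-802-5p mostly lie below it.

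Ratios within a library do not depend on its total. There were 8.32, 24.6 and 13.0 reads of mmu-miR-802-5p for each read of mmu-miR-34a-5p in J group replicates 1, 2 and 3, and 8.91, 23.7 and 6.35 in the M group replicates. Replicate 2 of each group stood out, with the highest miR-802 of its group. mmu-miR-34a-5p was low in both of these libraries, but J group replicate 3 was as low (29.6 RPM against 31.8 RPM in J group replicate 2). On the log2 scale the ratio was 3.79 ± 0.79 (SD, n = 3) for the J group against 3.46 ± 0.99 (SD, n = 3) for the M group, a difference of 0.33 that the spread exceeded (exact two-sided permutation test, p = 0.7). With 3 libraries against 3, this test cannot go below 0.1. Without M group replicate 1 the difference was 0.17. Its sign turned without J group replicate 2 (-0.087) or M group replicate 3 (-0.071), and it was 0.88 without M group replicate 2 and 0.69 without J group replicate 1.

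Set against mmu-miR-122-5p, there were 0.128 to 0.288 reads of mmu-miR-34a-5p for every 1000 reads of mmu-miR-122-5p in the J group and 0.140 to 0.313 in the M group. The log2 ratio differed between J and M by -0.36 (exact two-sided permutation test, p = 0.5). mmu-miR-802-5p had 1.66 to 3.36 reads for every 1000 of mmu-miR-122-5p in the J group and 1.99 to 3.31 in the M group, a log2 difference of -0.03 (exact two-sided permutation test, p = 1). The groups overlapped in both ratios. Without M group replicate 1 the log2 differences were -0.29 for mmu-miR-34a-5p and -0.11 for mmu-miR-802-5p. The difference for mmu-miR-802-5p was 0.22 without J group replicate 3, 0.19 without M group replicate 2, -0.29 without J group replicate 2 and -0.18 without M group replicate 3. That for mmu-miR-34a-5p was -0.74 without J group replicate 1, -0.69 without M group replicate 2, -0.20 and -0.15 without J group replicates 2 and 3, and -0.11 without M group replicate 3. The reference itself did not overlap between the groups, which held for 13.5% of the 548 miRNAs tested. The gap was narrow, with 232870 RPM in J group replicate 2 against 233360 RPM in M group replicate 3. mmu-miR-122-5p averaged 224136 RPM with JTXK granule and 243182 RPM with water (log2 fold change -0.12, standard error 0.095, adjusted p = 0.71 in limma). Of the other hepatocyte markers listed, mmu-miR-192-5p and mmu-miR-194-5p had log2 fold changes of the opposite sign (0.28 and 0.17). The remaining marker, mmu-miR-148a-3p, entered the hepatocyte sum only, and its own fold change is not given.

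The Mir802 hairpin gave reads from both arms, with the 5p arm as the main product in every library. The 3p arm made up 2.13%, 2.57% and 3.41% of the miR-802 reads in J group replicates 1, 2 and 3. In M group replicates 1, 2 and 3 it made up 3.26%, 3.17% and 2.87%. The 95% Wilson intervals ran from 1.61% to 2.83% in the lowest library and from 2.50% to 4.65% in the highest, so they overlapped. The share was 2.71% ± 0.649 (SD, n = 3) for the J group against 3.10% ± 0.201 (SD, n = 3) for the M group, a difference of -0.39 percentage points (exact two-sided permutation test, p = 0.4). It was -0.31 without M group replicate 1, -0.11 without J group replicate 1 and -0.75 without J group replicate 3 (p = 0.1 in the exact test, which cannot go lower there). No such share can be given for the Mir34a hairpin, because mmu-miR-34a-3p had no entry. The entries of the table hold at least 2 reads over the 6 libraries.

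**Figure D4:**
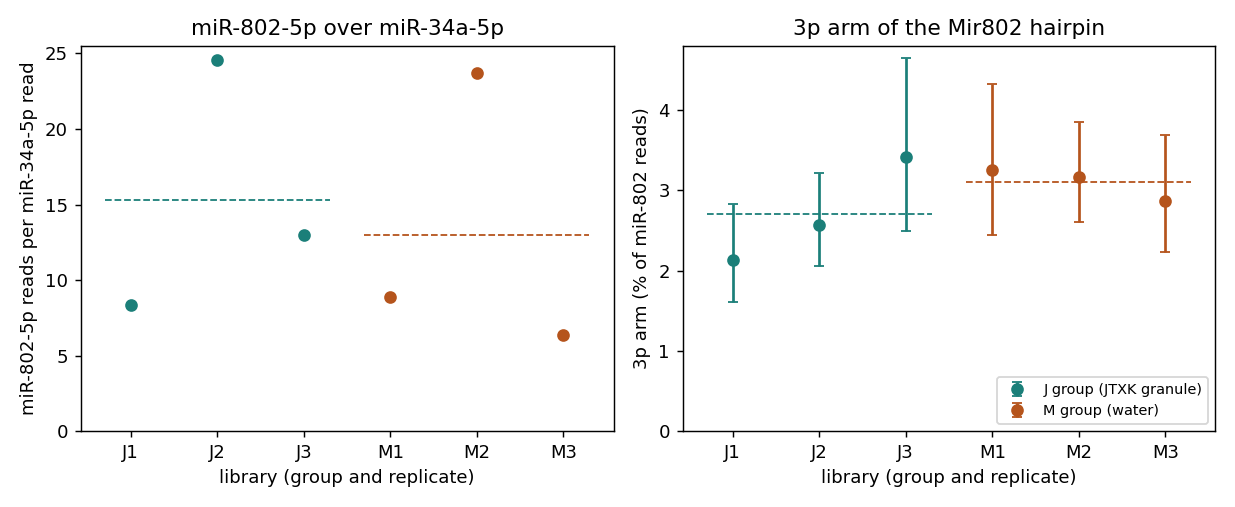
Left, reads of mmu-miR-802-5p per read of mmu-miR-34a-5p in each library. Right, the 3p arm as a percentage of all miR-802 reads, with bars for the 95% Wilson interval. Dashed lines are group means and both axes start at 0. The ratio on the left is highest in J2 and M2, at 24.6 and 23.7, while the arm share on the right stays between 2.13% and 3.41%.

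Over the 6 libraries, the arms of miR-802 had the highest correlation of the 3 pairs of members. On the log2(RPM + 1) scale, mmu-miR-802-5p and mmu-miR-802-3p had a Pearson r of 0.86 (exact permutation p = 0.031, adjusted p = 0.092 over the 3 pairs) and a Spearman rho of 0.83 (exact permutation p = 0.058, adjusted p = 0.18). Without J group replicate 1 and M group replicate 2, the libraries farthest from the median of mmu-miR-802-3p, r was 0.94. mmu-miR-34a-5p had an r of -0.32 with mmu-miR-802-5p (exact permutation p = 0.45, adjusted p = 0.45) and a rho of -0.09 (exact permutation p = 0.92, adjusted p = 0.92). With mmu-miR-802-3p its r was -0.47 (exact permutation p = 0.35, adjusted p = 0.45) and its rho -0.26 (exact permutation p = 0.66, adjusted p = 0.92). Without J group replicate 3 and M group replicate 3, these r became -0.94 and -0.78 over 4 libraries. None of the 3 pairs passed after adjustment, all values of a library share its total, and 3 libraries in each group are too few for a correlation within groups.

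The members were placed among other miRNAs by level and by pattern. mmu-miR-802-5p ranked 71st of the 1039 entries by mean RPM, next to mmu-miR-28a-5p (536 to 708 RPM over the libraries) and mmu-miR-378c (443 to 665 RPM). mmu-miR-34a-5p ranked 172nd, next to mmu-miR-362-3p (39.9 to 61.5 RPM) and mmu-miR-181d-5p (14.6 to 197 RPM). mmu-miR-802-3p ranked 237th. Around mmu-miR-802-5p both neighbours varied less between libraries than it did, with an SD of 61.8 and 82.5 RPM against 194 RPM over the 6 libraries.
Among 281 other miRNAs with a mean of at least 10 RPM, the patterns most like that of mmu-miR-34a-5p over the 6 libraries were those of mmu-miR-532-5p (r = 0.84), mmu-miR-140-3p (r = 0.83) and mmu-miR-7a-5p (r = 0.81). For mmu-miR-802-5p they were those of mmu-miR-28a-5p (r = 0.95), mmu-miR-222-3p (r = 0.89) and mmu-miR-3073b-5p (r = 0.87). For mmu-miR-802-3p they were those of mmu-miR-351-5p (r = 0.95), mmu-miR-320-3p (r = 0.94) and mmu-miR-10a-3p (r = 0.94). These are the highest of 281 correlations over 6 libraries and describe likeness alone.

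mmu-miR-34a-5p belongs to a family of miRNAs whose 5p arms share the seed GGCAGUG. These relatives are shown because a read of any of them carries the same seed (RefSeq, GRCm38.p6, seed in capitals), and mmu-miR-34c-5p was placed in the family by its name.
mmu-miR-34b-5p: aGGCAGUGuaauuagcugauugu
mmu-miR-449a-5p: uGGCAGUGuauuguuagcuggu
mmu-miR-449c-5p: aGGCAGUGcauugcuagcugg
In the RefSeq table used, no other mature mouse miRNA shared the seed of mmu-miR-802-5p or of mmu-miR-802-3p. Of the 9 family arms listed beside miR-34a, 4 had an entry (mmu-miR-34b-3p, mmu-miR-34c-5p, mmu-miR-449a-5p and mmu-miR-449c-5p), and 3 of these passed the filter on low values. Of those, mmu-miR-34c-5p alone had more than 1 read in more than 1 library, and it did not pass the thresholds in limma, edgeR or DESeq2.

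mmu-miR-34c-5p had 24.6, 8.65 and 23.2 RPM in J group replicates 1, 2 and 3 and 17.9, 10.8 and 17.0 RPM in the M group replicates. By limma its log2 fold change was 0.19, with a standard error of 0.44 and an adjusted p of 0.89, and the groups overlapped. Per 100 reads of mmu-miR-34a-5p there were 27.2 to 78.3 reads of mmu-miR-34c-5p in the J group and 23.2 to 31.3 in the M group. The highest of these ratios was in J group replicate 3, where mmu-miR-34a-5p was lowest.
mmu-miR-449a-5p and mmu-miR-449c-5p, which are known from cells with motile cilia, had 30 and 18 reads in M group replicate 1 (11.4 and 6.85 RPM). In the other 5 libraries together they had 1 and 0 reads, below the limit of 3 reads (0.695 to 1.07 RPM in those libraries). They passed the filter through M group replicate 1 alone, and no fold change is given. mmu-miR-34b-3p had 0 to 3 reads in every library.
The summed level of the family was 84.8, 40.5 and 52.8 RPM in J group replicates 1, 2 and 3 and 93.3, 47.5 and 90.1 RPM in the M group replicates. mmu-miR-34a-5p made up 56.1% to 81.1% of it, and mmu-miR-449a-5p and mmu-miR-449c-5p together made up 19.6% in M group replicate 1. The J group averaged 59.4 ± 22.9 RPM (SD, n = 3) against 77.0 ± 25.6 RPM (SD, n = 3) for the M group, and the groups overlapped.

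Other miRNAs reported as raised in obese or fatty mouse liver were measured beside the members. All 7 of this list were tested and 0 passed the thresholds in limma, beside 5.29% of all miRNAs. mmu-miR-103-3p and mmu-miR-107-3p, which lower insulin sensitivity, had log2 fold changes of -0.32 (standard error 0.19) and -0.25 (standard error 0.23). mmu-miR-143-3p, which impairs insulin signalling, had -0.41 (standard error 0.25), and mmu-miR-21a-5p had 0.21 (standard error 0.19). The last 2 passed under 1 of 16 alternatives each. mmu-miR-143-3p is also a marker of stromal cells. Its level, 8162 to 11689 in the J group and 10443 to 18708 RPM in the M group, was highest in M group replicate 1. The stromal sum was highest there too, but it contains mmu-miR-143-3p, at 18708 of 25242 RPM. Another stromal marker, mmu-miR-145a-5p, was highest in M group replicate 3, at 6964 RPM against 5427 RPM in M group replicate 1. The part of stromal RNA in the level of mmu-miR-143-3p was not tested. The median of the list was -0.06, beside -0.13 over all 548 miRNAs, and 6 of the 7 values were below 0, beside 323 of 548. With median-of-ratios scaling, edgeR and DESeq2 3 of 7 were below 0, and with quantile normalization 4 were.
miRNAs induced by p53 were listed as well, since miR-34a is the best known of them. Of 6 listed, 5 had an entry and were tested, and 1 passed the thresholds, beside 5.29% of all miRNAs (3.83% lower in the J group). The J and M libraries of 2 of the 5 did not overlap (mmu-miR-145a-5p and mmu-miR-192-5p), beside 13.5% of all miRNAs. mmu-miR-145a-5p was lower in the J group, at 4270 ± 444 RPM (SD, n = 3) against 5897 ± 926 RPM (SD, n = 3), which is -0.46 on the log2 scale (standard error 0.17, unadjusted p = 0.030 and adjusted p = 0.71 in limma). It passed under 10 of 16 alternatives, and it is also a marker of stromal cells. mmu-miR-192-5p, which did not pass (unadjusted p = 0.052 and adjusted p = 0.71 in limma) but passed under 3 of 16 alternatives, had a log2 fold change of 0.28, and mmu-miR-215-5p had -0.57 (standard error 0.42). The median of the list was 0.17, and mmu-miR-192-5p and mmu-miR-194-5p also belong to the hepatocyte markers.

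Markers of the cell types in liver were measured in the same libraries. In a bulk sample, fewer cells of a type and less RNA per cell cannot be told apart. The summed level of 4 hepatocyte miRNAs was 391440 to 419050 RPM in the J group and 392000 to 450360 RPM in the M group, and its highest libraries were replicate 2 of each group, as for both arms of miR-802. The part of hepatocyte RNA in the level of miR-802 was not tested. Of 5 markers of blood-derived immune cells, all had reads in every library, and their sum was 595 to 866 RPM in the J group and 796 to 4228 RPM in the M group. The 4 stromal markers with an entry, of 5 listed, summed to 12582 to 16890 RPM in the J group and 16765 to 25242 RPM in the M group, and the 5 markers of bile duct epithelium to 950.1 to 2379 and 1203 to 4298 RPM. M group replicate 1 had the highest sum in these last 3 lists. Most of its stromal sum was mmu-miR-143-3p (18708 RPM), while the stromal marker mmu-miR-145a-5p was highest in M group replicate 3. mmu-miR-126a-3p, the 1 endothelial marker of 2 with an entry, had 4166 to 6718 RPM in the J group and 4486 to 5579 RPM in the M group. The 2 red blood cell markers with an entry, of 3, summed to 4286 to 6232 and 2534 to 9724 RPM. In each of the 6 lists the sums of the groups overlapped. Some single markers did not, beside 13.5% of all 548 miRNAs: mmu-miR-145a-5p and mmu-miR-122-5p, lower in the J group, and mmu-miR-192-5p, higher in it. The part of any of these cell types in the levels of miR-34a was not tested.

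The seeds were looked up in 3′ UTRs, and for mmu-miR-34a-5p in genes known as its targets, to show where a change in either miRNA could be read out. mRNA was not measured in these libraries. The longest annotated 3′ UTR of each of 20966 protein-coding genes was used (GENCODE M21, GRCm38). The 7 letters that pair with the seed of mmu-miR-34a-5p, CACTGCC, occurred in 14.2% of these 3′ UTRs, and those for mmu-miR-802-5p, GTTACTG, in 8.89%, on the transcribed strand. Of 8 target genes looked up for mmu-miR-34a-5p, 5 held the letters, namely Nampt (1 match), Ppara (1), Met (2), Notch1 (3) and Cdk6 (4). They were not found in Sirt1, Klb or Bcl2, which says only that these letters are not in the 3′ UTR used. The 8 genes were picked as known targets. All but Klb (310 bases) had longer 3′ UTRs than the median gene (954 bases), up to 10217 bases in Cdk6. The 5 of 8 is therefore not comparable with the 14.2%.
The sites in the genes closest to hepatic lipid and NAD metabolism are shown in DNA letters with the match in capitals.
Ppara site for mmu-miR-34a-5p, chr15:85802640-85802664 (plus strand): atgatccagatggaCACTGCCaagg
Nampt site for mmu-miR-34a-5p, chr12:32851156-32851180 (plus strand): agagttccgaacatCACTGCCcttg
In Ppara the match is followed by an A, which makes it an 8-letter match of the kind found in 4.90% of the 3′ UTRs. Ppara is a nuclear receptor that drives fatty acid oxidation, and Nampt the enzyme that makes the precursor of NAD. A match is a description of the sequence and not a measured site.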

How the data were processed

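Small RNA libraries from 6 mouse livers were sequenced on Illumina HiSeq. The authors filtered the reads, assigned unique reads to Rfam and miRBase, and deposited RPM for each library separately. The labels name the build mm9, and the aligner and the rule for reads matching several miRNAs are not given in the sources used here. Every RPM value was within 0.01 reads of a whole number of reads (100% of values), so the reads were recovered.

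Groups came from the titles of the samples. J was compared with M by limma 3.58.1 in R 4.3.3 (two-sided, eBayes with a trend) after adding 1 RPM and taking log2. The 548 miRNAs whose mean passed 1 RPM in at least one group were tested, with Benjamini-Hochberg adjustment over all of them. edgeR 4.0.16 (quasi-likelihood) and DESeq2 1.42.0 were run on the recovered reads as alternatives. Ratios within a library were compared by exact permutation tests. Intervals are 95% Wilson intervals. The limma, edgeR and DESeq2 fits were also run on simulated counts with planted differences larger than those of the members. That check does not cover differences as small as theirs. Python 3.11.15, numpy 2.4.6, pandas 2.3.3, scipy 1.17.1 and matplotlib 3.10.9 were used.

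The members, the lists and the rule for naming miRNAs (members, family, lists, nearest in level, 3 most alike in pattern, target genes) were chosen with earlier results of these data known. Of the 762 mouse names in the table, 653 matched a RefSeq mature miRNA. Same-numbered J and M libraries share a number only, since their deviations from the group means had correlations of 0.05, 0.06 and -0.01, so they were not treated as pairs. Each library is labelled as a mouse of its own.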

Additional observations from a re-analysis of the deposited data

How the results depend on the processing

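The 3 members passed the thresholds under none of the 16 alternatives. mmu-miR-34a-5p and mmu-miR-802-3p kept a log2 fold change below 0 under all 16. mmu-miR-802-5p turned above 0 under 3 of them: quantile normalization (0.15), without J group replicate 3 (0.08) and without M group replicate 2 (0.13). With each library left out in turn, the log2 fold change ranged from -0.78 to -0.25 for mmu-miR-34a-5p (adjusted p 0.61 to 0.91 over the 16 alternatives), from -0.60 to -0.07 for mmu-miR-802-3p (0.62 to 0.97) and from -0.43 to 0.13 for mmu-miR-802-5p (0.78 to 0.98). In the same way, the log2 ratio of mmu-miR-802-5p to mmu-miR-34a-5p, J minus M, ranged from -0.087 to 0.88, with -0.087 without J group replicate 2 and -0.071 without M group replicate 3. That of mmu-miR-802-5p to mmu-miR-122-5p ranged from -0.29 to 0.22, with 0.22 without J group replicate 3 and 0.19 without M group replicate 2. The log2 ratio of mmu-miR-34a-5p to mmu-miR-122-5p ranged from -0.74 to -0.11, and the share of the 3p arm from -0.75 to -0.11 percentage points. The count of 29 miRNAs past the thresholds was 45 with edgeR on the recovered reads and 21 to 46 with a library left out, 46 of them without M group replicate 2. The cause of these shifts was not tested. With a replicate block, 27 miRNAs passed and the log2 fold changes of the members were as without it (-0.47, -0.15 and -0.36), with none of the 3 members called. The alternatives for mmu-miR-34a-3p and its arm share could not be run, because it had no entry.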
